A study of Mus musculus with 12 samples.

Results

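The mitosis and DNA replication genes are 44 genes of the cell division machinery, chosen by name: 31 act in mitosis and 13 in DNA replication. They were followed in mouse vessels over days 0, 1, 3 and 7 of angiotensin II, the peptide hormone that constricts arteries and raises blood pressure. For each gene the transcript cluster, the array's unit of probes for a gene, was taken that carried this gene symbol alone; the brightest on average was to be used where a gene had several, but each member had only 1. Of the 44 genes, 42 were measured, 30 mitotic and 12 for replication, among 30819 genes of the whole table. Ccnb1 had no match and Mcm7 lay in a cluster with several symbols, so neither was analysed here. Of the 42, 39 were bright enough to be tested (28 mitotic, 11 replication), beside 22150 genes in all. Birc5, Melk and Gins1 did not pass. Of the 39 tested members, 11 were below the filter level of 5.25 log2 units on all 3 day 0 arrays and passed only through treated arrays, so counts over the 39 are a description.

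The mice were male C57BL/6, aged 8 to 10 weeks, in 4 groups of 3 arrays described as biological replicates. The day 0 group had no angiotensin II, and the other groups were infused for 1, 3 or 7 days at 1500 ng per kg per min through implanted osmotic pumps. The sources used here name no vehicle pump for the day 0 mice, no kind of vessel and no pooling of animals, so pump implantation and angiotensin II cannot be told apart. Signals are log2 values, a change is a difference in log2 signal between the means of 2 days, and ± after a change is its standard error.

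A cell that is to divide first copies its DNA in S phase and then separates the copies in mitosis. Copying needs the MCM helicase that opens the double helix at licensed origins, the sliding clamp that holds the polymerases, a supply of deoxynucleotides, and enzymes that copy DNA methylation to the new strand. Mitosis needs cyclin-dependent kinase 1 with its cyclins, the spindle with its kinesins, the kinetochores that tie chromosomes to the spindle, and a contractile ring that parts the daughter cells. In the healthy artery few cells divide, and both groups of genes are known to be low in resting cells. Many replication genes are activated by E2F factors near S phase, and many mitotic genes later, through a CHR element and CCAAT boxes in the promoter.

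The stretches just before the transcription start of 7 members show these letters. The mitotic members Mki67, Top2a, Kif11 and Kif23 were taken by their fitted log2 change at day 1 among those with 1 promoter entry, and Mcm3, Mcm5 and Mcm6 are subunits of the same helicase. The sequences, from 180 to 1 bases before the start in RefSeq promoters of build GRCm38.p6, read 5′ to 3′ on the strand of the gene. Capitals mark 3 motifs on either strand. The CHR element was searched as TTTGAA and in a variant form as TTTAAA. The CCAAT box was searched by the letters of its name. The E2F motif was searched as TTGGCGC and in another form as TTCGCGC, and its letters can overlap each other.
Mki67: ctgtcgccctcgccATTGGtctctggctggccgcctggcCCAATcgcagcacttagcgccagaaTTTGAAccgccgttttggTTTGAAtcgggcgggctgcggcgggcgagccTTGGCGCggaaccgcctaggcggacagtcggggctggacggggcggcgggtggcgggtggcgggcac
Top2a: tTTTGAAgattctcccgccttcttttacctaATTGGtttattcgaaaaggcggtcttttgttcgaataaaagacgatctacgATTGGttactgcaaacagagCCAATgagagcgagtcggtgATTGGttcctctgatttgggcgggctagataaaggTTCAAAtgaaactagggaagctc
Kif11: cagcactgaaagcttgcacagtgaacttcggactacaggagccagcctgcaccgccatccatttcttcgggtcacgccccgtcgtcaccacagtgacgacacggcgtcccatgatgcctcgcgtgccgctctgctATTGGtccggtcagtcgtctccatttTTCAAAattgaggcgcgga
Kif23: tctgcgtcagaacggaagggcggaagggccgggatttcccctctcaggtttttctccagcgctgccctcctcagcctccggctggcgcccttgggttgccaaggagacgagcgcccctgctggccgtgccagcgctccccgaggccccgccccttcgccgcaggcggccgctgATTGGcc
Mcm3: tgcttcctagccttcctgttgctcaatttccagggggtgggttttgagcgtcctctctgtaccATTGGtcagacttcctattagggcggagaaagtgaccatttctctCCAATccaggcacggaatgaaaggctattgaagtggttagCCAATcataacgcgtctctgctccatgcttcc
Mcm5: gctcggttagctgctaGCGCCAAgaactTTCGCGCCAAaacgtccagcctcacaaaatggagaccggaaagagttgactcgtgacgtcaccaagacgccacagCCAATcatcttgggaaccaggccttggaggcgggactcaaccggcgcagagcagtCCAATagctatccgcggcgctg
Mcm6: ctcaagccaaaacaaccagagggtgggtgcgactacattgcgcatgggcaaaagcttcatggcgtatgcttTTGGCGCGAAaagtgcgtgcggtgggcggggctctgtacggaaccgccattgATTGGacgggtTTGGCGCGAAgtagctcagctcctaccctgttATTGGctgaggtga
These lie at chr7:135716380-135716559, chr11:99024190-99024369, chr9:61946800-61946979, chr1:20820313-20820492 and chr1:128359706-128359885 on the minus strand, and at chr19:37376202-37376381 and chr8:75109329-75109508 on the plus strand. CCAAT letters stand in each of the 7 stretches. The Mki67, Top2a and Kif11 stretches also hold CHR letters, and those of Mki67, Mcm5 and Mcm6 hold E2F letters, in Mcm5 and Mcm6 partly as overlapping pairs on opposite strands. Within the 50 bases after the start, outside the stretches printed, Mcm3 has E2F letters and Kif23 has CHR letters.

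Over the wider window from 250 bases before to 50 after the start, 36 of the 42 measured members had an entry, with 41 promoters in all. The shares below count promoter entries and not genes: 28 entries came from 26 mitotic genes and 13 from 10 replication genes. The entries of Ect2 overlap each other, as do those of Prc1, so the same letters there were counted more than once. Dnmt1 and Uhrf1 also had several entries each. CHR letters stood in 85.7% of 28 mitotic promoters, in 46.2% of 13 replication promoters and in 27.6% of all 32851 promoters. CCAAT letters stood in 75.0% of mitotic, 84.6% of replication and 37.4% of all promoters. CHR and CCAAT letters occurred together in 71.4% of mitotic, 38.5% of replication and 10.7% of all promoters. E2F letters stood in 21.4% of mitotic, 38.5% of replication and 3.89% of all promoters, and E2F letters on the opposite strand can overlap a CCAAT box. Without the 50 bases after the start, CHR letters stood in 50% of mitotic, 30.8% of replication and 25.2% of all promoters, and CHR with CCAAT letters in 42.9%, 23.1% and 8.78%. Such matches describe the letters only.

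Signal over background differed between the days. Positive controls (1324 features) exceeded negative controls (5222 features), by their medians on an array, by 2.56 to 2.64 log2 units at day 0, 1.94 to 2.51 at day 1, 1.83 to 2.11 at day 3 and 1.20 to 2.10 at day 7. For this control difference, exact permutation tests (two-sided) of days 1, 3 and 7 with day 0 each came to p = 0.1, which 3 arrays a group cannot go below. Dim genes moved up as well: at day 7 the 7691 genes with a mean signal of 5 to 6 had a median change of 0.25, and the 3312 genes between 8 and 10 had -0.26. Of the tested members, 19 lay in the 5 to 6 range and 13 in the 6 to 7 range, where the median change of all genes at day 7 was 0.07. Smooth muscle and endothelial markers were measured in the vessels: 0 of 9 and 0 of 8 lay under the negative control median on any day 0 array.

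On day 0 most of these genes were at background by the measure used here. At background means here at or below the median of the negative control features, which was 5.91 to 6.08 on the day 0 arrays, on all 3 arrays. By this measure 29 of the 42 measured members (69.0%) were at background on day 0: 24 of 30 mitotic genes and 5 of 12 replication genes. Of all 30819 genes measured, 51.9% were at background on day 0 by the same measure. All 9 genes of the kinesin and spindle assembly group and 7 of 8 of the kinetochore group were among them. The replication genes at background were Mcm2, Mcm5, Gins1, Rrm2 and Uhrf1. Only 6 members lay above the median on all 3 day 0 arrays, the replication genes Ccne2, Mcm6, Pcna, Rrm1 and Dnmt1 and the cytokinesis gene Anln. With angiotensin II, 10 of 42 were at background at day 1, 10 at day 3 and 23 at day 7. Among all genes measured the shares were 51.6%, 49.6% and 47.3%. For mitotic genes the counts were 24, 7, 8 and 18 of 30 over days 0, 1, 3 and 7, and for replication genes 5, 3, 2 and 5 of 12. Against the 90th percentile of the negative control features, 41 of 42 were at background on day 0 and 39, 40 and 42 at days 1, 3 and 7. Most genes lay under this level: of all 30819 measured, 26176, 26544, 26808 and 26876 did at days 0, 1, 3 and 7. The negative control median lay above the median of all transcript clusters, which was 5.45 to 5.47 on the day 0 arrays. For a gene at background the day 0 level has only an upper bound.

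Rises at day 1 were called for 18 of 28 mitotic and 5 of 11 replication genes. Of the 39 tested members, 23 rose at day 1 and 0 fell, against 1.97% of all genes tested that rose. At day 3 32 rose and 0 fell, against 4.57% of all genes that rose. At day 7 13 rose, against 12.1% of all genes, and 2 fell, against 13.1%. The median change was 0.80 at day 1, 0.86 at day 3 and 0.50 at day 7, where that of all genes tested was 0.01, 0.08 and 0.10. Over all 42 measured members, with those below the filter, it was 0.77, 0.80 and 0.45. The 28 members that were not below the filter level on all 3 day 0 arrays gave 17, 23 and 9 rises. Some of these 28, such as Kif11 and Kif20a, reached the level on fewer than 3 day 0 arrays and still needed treated arrays to pass. The 23 members that reached the level on all 12 arrays gave 14, 18 and 7 rises. All 3 treated arrays lay above all 3 day 0 arrays for 38 members at day 1, 37 at day 3 and 29 at day 7, against 11.8%, 23.3% and 26.7% of all genes tested. The 3 comparisons share the day 0 arrays. In bulk tissue, a larger number of dividing cells and more RNA per cell cannot be told apart.

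**Figure D1:**
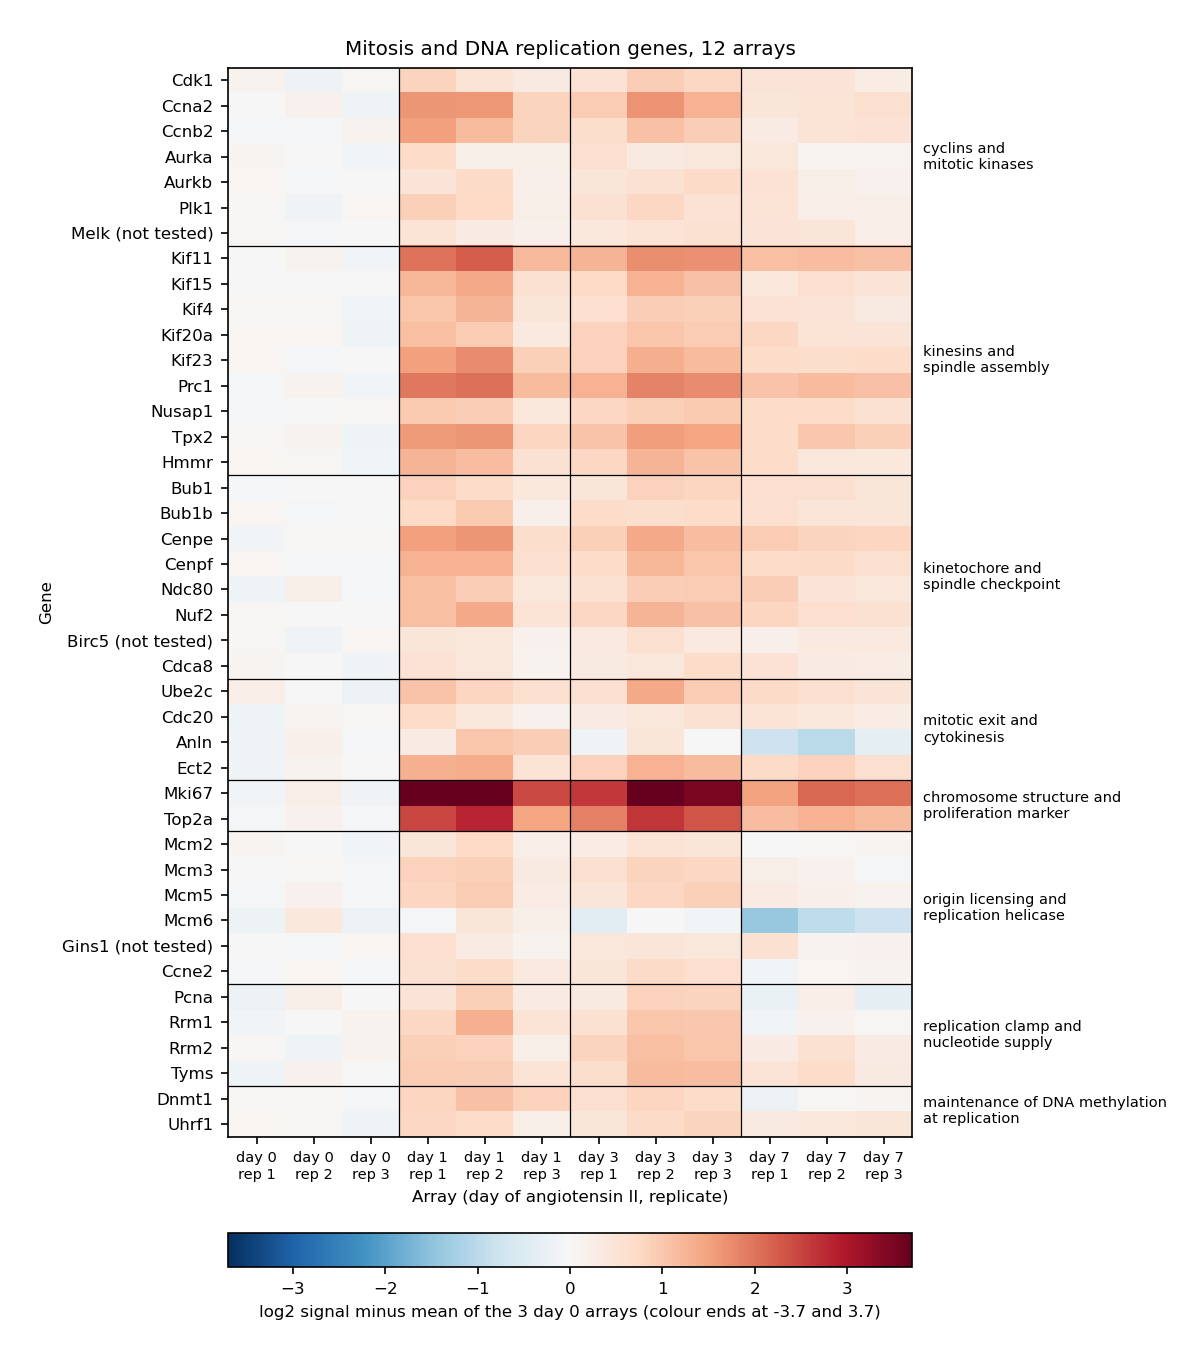
Log2 signal of 42 measured members (rows, grouped by role) on 12 arrays (columns, 3 per day), minus the mean of the 3 day 0 arrays. Red fills the day 1 and day 3 columns for nearly all rows, and Anln and Mcm6 turn blue at day 7.

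The calls changed when single arrays were left out and when the control features were used as a covariate. Without day 1 replicate 3, which held the lowest signal of its group for 36 of 39 members, 33 rose at day 1. Without any 1 of the 3 day 0 arrays, or of day 1 replicates 1 and 2, 6 to 8 rose, and with the 6 arrays of the comparison alone 1 rose; each of the 23 kept its direction in these fits. At day 3 leaving out day 0 replicate 2 or 3, or day 3 replicate 2 or 3, left 13 to 18 of the 32. At day 7 the count was 3 without any 1 day 0 array or without day 7 replicate 2, 5 without day 7 replicate 1, 8 without day 3 replicate 3 and 24 without day 1 replicate 3. With signal over background, as positive minus negative controls, as a covariate, 14 members rose at day 1, 3 at day 3 and 0 at day 7. With quantile normalization or median centring of the arrays 5 rose at day 7. The control difference averaged 2.59, 2.25, 1.98 and 1.76 at days 0, 1, 3 and 7. Array quality and day are thus partly confounded, and the control-feature covariate cannot tell them apart. The part of array quality in these results was not tested.

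Mki67 and Top2a rose at all 3 days. They lay under the negative control median on 2 of 3 day 0 arrays and under the 90th percentile on all 3, so their day 0 levels too have only an upper bound, and the sizes of these changes are not ranked against those of other members. Mki67, the Ki-67 protein that coats mitotic chromosomes and marks cycling cells, had signals of 5.62, 5.95 and 5.57 at day 0, 9.80, 10.11 and 8.16 at day 1, 8.33, 9.65 and 9.19 at day 3, and 7.19, 7.83 and 7.74 at day 7. Every treated array lay above every day 0 array, and day 1 replicate 3 and day 3 replicate 1 were the low arrays of their groups. The change was 3.65 ± 0.49 at day 1, 3.34 ± 0.49 at day 3 and 1.87 ± 0.49 at day 7 (adjusted p = 0.00899, 0.00575 and 0.0255).
Top2a, the topoisomerase that untangles the copied chromosomes, had signals of 5.67, 5.91 and 5.67 at day 0, 8.21, 8.56 and 7.22 at day 1, 7.62, 8.39 and 8.08 at day 3, and 6.88, 7.04 and 6.91 at day 7. The same arrays were low, and no treated array overlapped day 0. Its change was 2.25 ± 0.31 at day 1, 2.28 ± 0.31 at day 3 and 1.19 ± 0.31 at day 7 (adjusted p = 0.00934, 0.00447 and 0.0246).

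All 9 genes of the kinesin and spindle assembly group rose at day 1 and at day 3, and 6 rose at day 7. Beside the counts by role, here and below, 1.97%, 4.57% and 12.1% of all genes tested rose at days 1, 3 and 7. The motor Kif11, which pushes the spindle poles apart, had signals of 5.29, 5.43 and 5.20 at day 0, 7.32, 7.54 and 6.51 at day 1, 6.55, 7.04 and 7.01 at day 3, and 6.42, 6.45 and 6.40 at day 7. Its 3 day 7 arrays lay close together and above all day 0 arrays. The change of Kif11 was 1.81 ± 0.24 at day 1, 1.56 ± 0.24 at day 3 and 1.12 ± 0.24 at day 7 (adjusted p = 0.00802, 0.00626 and 0.0113). Prc1, which bundles the microtubules of the spindle midzone, had signals of 5.40, 5.56 and 5.34 at day 0, 7.39, 7.47 and 6.61 at day 1, 6.72, 7.27 and 7.18 at day 3, and 6.50, 6.60 and 6.52 at day 7. Its change was 1.73 ± 0.22 at day 1, 1.63 ± 0.22 at day 3 and 1.11 ± 0.22 at day 7 (adjusted p = 0.00692, 0.00432 and 0.0085). Kif11 and Prc1 were above background on every treated array and at background on every day 0 array. The midzone motors Kif23 and Kif20a, the spindle assembly factor Tpx2 and the microtubule binder Nusap1 also rose at all 3 days. Their changes at day 1 were 1.38, 0.80, 1.34 and 0.76. Kif15, another motor that can keep the poles apart, the chromosome motor Kif4 and Hmmr, a microtubule-bound hyaluronan receptor, rose at days 1 and 3, with changes at day 7 of 0.50, 0.44 and 0.50 (adjusted p = 0.0953, 0.0894 and 0.0729).

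Of 7 tested genes of the kinetochore and the spindle checkpoint, 4 rose at day 1, 6 at day 3 and 4 at day 7. The kinetochore motor Cenpe had signals of 4.83, 4.99 and 4.99 at day 0, 6.45, 6.56 and 5.60 at day 1, 5.83, 6.34 and 6.08 at day 3, and 5.89, 5.76 and 5.73 at day 7. All treated arrays were above day 0, yet at day 7 all 3 were again at background. Its change was 1.26 ± 0.23 at day 1, 1.14 ± 0.23 at day 3 and 0.86 ± 0.23 at day 7 (adjusted p = 0.0226, 0.0161 and 0.0274). Cenpf, a kinetochore protein of late G2 and mitosis, had signals of 5.44, 5.33 and 5.33 at day 0, 6.66, 6.65 and 5.96 at day 1, 6.04, 6.60 and 6.40 at day 3, and 6.06, 6.07 and 5.96 at day 7, again with no overlap with day 0. Its change was 1.06 ± 0.19 at day 1, 0.98 ± 0.19 at day 3 and 0.66 ± 0.19 at day 7 (adjusted p = 0.0234, 0.0154 and 0.0366). Nuf2, a subunit of the NDC80 complex that grips microtubules, and the checkpoint kinase Bub1 also rose at all 3 days, by 1.00 and 0.64 at day 1. Ndc80, the partner of Nuf2, and Bub1b, the checkpoint protein BubR1, rose at day 3, by 0.80 and 0.67. Their changes were 0.82 and 0.63 at day 1 (adjusted p = 0.0625 and 0.0716) and 0.60 and 0.50 at day 7 (adjusted p = 0.0558 and 0.052). Cdca8, borealin of the chromosomal passenger complex, did not pass at any day, with 0.36, 0.47 and 0.38. Birc5, survivin of the same complex, was too dim to be tested, at 4.68 to 4.86 on day 0 arrays and 4.95 to 5.39 on treated arrays.

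Among the cyclins and mitotic kinases, 2 of 6 tested genes rose at day 1, 5 at day 3 and 0 at day 7. Since 12.1% of all genes tested rose at day 7, 0 of 6 is not read as a result about this group. Ccna2, cyclin A2 of S phase and early mitosis, had signals of 5.81, 5.98 and 5.64 at day 0, 7.44, 7.42 and 6.63 at day 1, 6.75, 7.47 and 7.11 at day 3, and 6.26, 6.31 and 6.41 at day 7. Day 7 arrays lay above all day 0 arrays, but closer to them than those of days 1 and 3. The change was 1.35 ± 0.24 at day 1, 1.30 ± 0.24 at day 3 and 0.52 ± 0.24 at day 7 (adjusted p = 0.0199, 0.0113 and 0.122). Ccnb2, a mitotic cyclin B, had signals of 5.27, 5.32 and 5.47 at day 0, 6.86, 6.52 and 6.18 at day 1, 5.99, 6.45 and 6.25 at day 3, and 5.66, 5.86 and 5.89 at day 7. All treated arrays were above day 0, and its change was 1.16 ± 0.17 at day 1, 0.88 ± 0.17 at day 3 and 0.45 ± 0.17 at day 7 (adjusted p = 0.0116, 0.015 and 0.0772). Cdk1, the kinase that both cyclins activate, the mitotic kinase Plk1 and the passenger complex kinase Aurkb rose at day 3, by 0.73, 0.61 and 0.58, and did not pass at day 1 (adjusted p = 0.0738, 0.0851 and 0.125) or day 7 (adjusted p = 0.0634, 0.15 and 0.125). Aurka, the kinase of the spindle poles, did not pass at any day (0.37, 0.46 and 0.21). Melk, a kinase of dividing cells, was not tested, at 4.59 to 4.67 on day 0 arrays and 4.82 to 5.18 on treated arrays.

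The 4 genes of mitotic exit and cytokinesis gave different calls. Ect2, the exchange factor that switches on RhoA for the contractile ring, had signals of 5.44, 5.69 and 5.54 at day 0, 6.88, 6.93 and 6.06 at day 1, 6.41, 6.84 and 6.72 at day 3, and 6.27, 6.40 and 6.16 at day 7. It was above day 0 on all treated arrays and rose at all 3 days, with 1.07 ± 0.22 at day 1, 1.10 ± 0.22 at day 3 and 0.72 ± 0.22 at day 7 (adjusted p = 0.0313, 0.0148 and 0.0392). Ube2c, the ubiquitin-conjugating enzyme of the anaphase-promoting complex, had signals of 5.91, 5.64 and 5.45 at day 0, 6.71, 6.45 and 6.26 at day 1, 6.25, 7.06 and 6.61 at day 3, and 6.38, 6.27 and 6.15 at day 7. Its change was 0.81 ± 0.20 at day 1, 0.97 ± 0.20 at day 3 and 0.60 ± 0.20 at day 7, and it passed at day 3 only (adjusted p = 0.0661, 0.0185 and 0.0571). Cdc20, which activates the anaphase-promoting complex, did not pass at any day (0.42, 0.43 and 0.39). Anln, the actin-binding anillin of the contractile ring, had signals of 7.35, 7.65 and 7.42 at day 0, 7.79, 8.49 and 8.38 at day 1, 7.33, 7.93 and 7.47 at day 3, and 6.70, 6.49 and 7.10 at day 7. It overlapped day 0 at day 3 and lay below all day 0 arrays at day 7. Its change was 0.75 ± 0.23 at day 1, 0.10 ± 0.23 at day 3 and -0.71 ± 0.23 at day 7 (adjusted p = 0.12, 0.779 and 0.0489), so Anln fell at day 7 and did not pass at day 1. The fall did not pass with the control-feature covariate (-0.36, adjusted p = 0.635), with no filter on dim genes (adjusted p = 0.0572), on the 6 arrays alone (adjusted p = 0.0601) or without any 1 of 9 arrays.

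**Figure D2:**
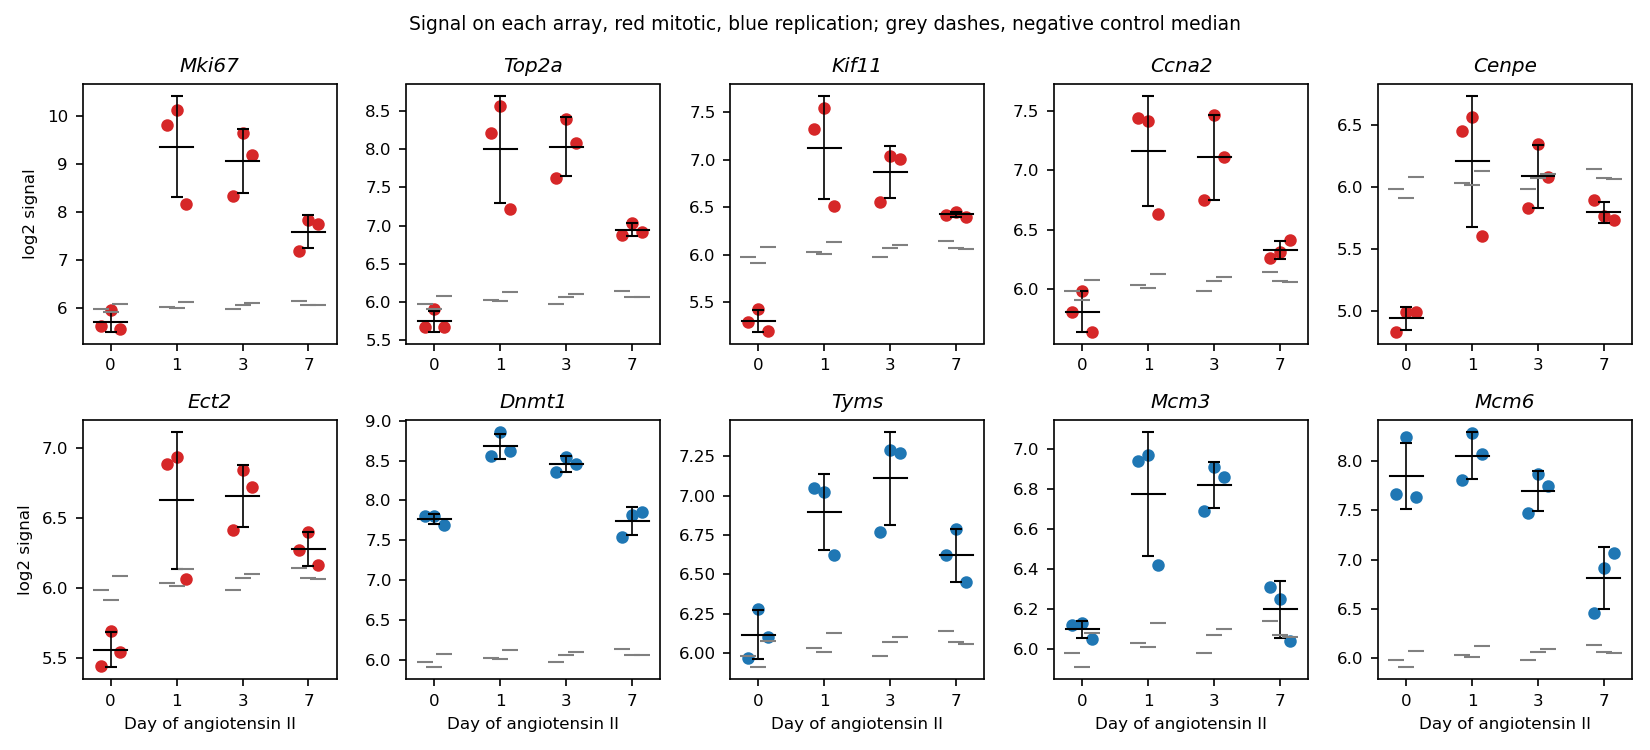
Log2 signal of 10 members on each array (points) by day, with the mean and SD (black, n = 3) and the negative control median of each array (grey dashes). The 6 mitotic genes (red) stay above day 0 at day 7, Tyms (blue) does too, Dnmt1 and Mcm3 overlap day 0, and Mcm6 lies below it.

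Replication genes had a median change of 0.65 at day 1, 0.69 at day 3 and 0.05 at day 7. Of the 5 tested genes of origin licensing and the helicase, 2 rose at day 1, 3 at day 3 and 0 at day 7. Beside 12.1% of all genes tested that rose at day 7, the 0 of 5 is not read as a result. Mcm3, a subunit of the helicase ring, had signals of 6.12, 6.13 and 6.05 at day 0, 6.94, 6.97 and 6.42 at day 1, 6.69, 6.91 and 6.86 at day 3, and 6.31, 6.25 and 6.04 at day 7. It was above day 0 on all day 1 and day 3 arrays and overlapped day 0 at day 7. Its change was 0.68 ± 0.14 at day 1, 0.71 ± 0.14 at day 3 and 0.10 ± 0.14 at day 7 (adjusted p = 0.0373, 0.0163 and 0.616). Mcm5, another subunit, rose at day 3 by 0.69 ± 0.17 (adjusted p = 0.0323), with 0.67 at day 1 and 0.21 at day 7. Mcm2 did not pass at any day (0.47, 0.41 and 0.05). Ccne2, cyclin E2 that acts at the start of S phase, rose by 0.53 ± 0.10 at day 1 and 0.59 ± 0.10 at day 3 (adjusted p = 0.0275 and 0.0102), and stood at 0.04 at day 7. Gins1, of the complex that activates the helicase, was not tested, at 4.68 to 4.82 on day 0 arrays and 4.88 to 5.36 on treated arrays.

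Mcm6, a further subunit of the ring, fell at day 7. Its signals were 7.67, 8.24 and 7.64 at day 0, 7.81, 8.29 and 8.07 at day 1, 7.47, 7.87 and 7.75 at day 3, and 6.46, 6.92 and 7.07 at day 7. Day 1 and day 3 arrays overlapped day 0, and all 3 day 7 arrays were below every other array. The change was 0.21 ± 0.22 at day 1, -0.15 ± 0.22 at day 3 and -1.03 ± 0.22 at day 7 (adjusted p = 0.78, 0.659 and 0.0109), or 0.49 of the day 0 signal at day 7. With the control-feature covariate it was -0.55 at day 7 (adjusted p = 0.342), and it passed without each array in turn. Mcm4, a subunit that is not among the 44 genes, stood at 0.48, 0.64 and -0.04, and passed at day 3 only.

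For the clamp and the nucleotide supply, 2 of 4 genes rose at day 1, 3 at day 3 and 0 at day 7. The 0 of 4 is likewise not read as a result, beside 12.1% of all genes tested that rose at day 7. Tyms, thymidylate synthase, had signals of 5.97, 6.28 and 6.10 at day 0, 7.05, 7.02 and 6.62 at day 1, 6.77, 7.29 and 7.27 at day 3, and 6.62, 6.79 and 6.45 at day 7. It lay above day 0 on all treated arrays, and its change was 0.78 ± 0.17 at day 1, 1.00 ± 0.17 at day 3 and 0.50 ± 0.17 at day 7 (adjusted p = 0.0422, 0.00992 and 0.0576). Rrm2, the small subunit of ribonucleotide reductase, had signals of 5.11, 4.89 and 5.18 at day 0, 5.94, 5.90 and 5.29 at day 1, 5.87, 6.18 and 6.10 at day 3, and 5.37, 5.61 and 5.36 at day 7. All treated arrays lay above day 0, but its change of 0.65 ± 0.18 at day 1, 0.99 ± 0.18 at day 3 and 0.38 ± 0.18 at day 7 passed at day 3 only (adjusted p = 0.0816, 0.0107 and 0.124). Rrm1, the large subunit, rose by 0.86 ± 0.20 at day 1 and 0.86 ± 0.20 at day 3 (adjusted p = 0.0483 and 0.0262), with 0.04 at day 7. Pcna, the sliding clamp, stood at 0.55, 0.67 and -0.11 and did not pass (adjusted p = 0.235, 0.0817 and 0.726).

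The genes that maintain DNA methylation at the fork were Dnmt1 and Uhrf1. Dnmt1, the methyltransferase itself, had signals of 7.81, 7.80 and 7.69 at day 0, 8.56, 8.86 and 8.62 at day 1, 8.36, 8.55 and 8.46 at day 3, and 7.54, 7.82 and 7.86 at day 7. The groups of days 1 and 3 did not overlap day 0, and the day 7 group did. Its change was 0.91 ± 0.11 at day 1, 0.69 ± 0.11 at day 3 and -0.03 ± 0.11 at day 7 (adjusted p = 0.00552, 0.00736 and 0.873). Uhrf1, which brings Dnmt1 to newly copied DNA, had signals of 5.59, 5.58 and 5.40 at day 0, 6.28, 6.20 and 5.74 at day 1, 5.96, 6.23 and 6.36 at day 3, and 5.85, 5.90 and 5.98 at day 7. Its change was 0.55 ± 0.15 at day 1, 0.66 ± 0.15 at day 3 and 0.39 ± 0.15 at day 7 and passed at day 3 only (adjusted p = 0.081, 0.0234 and 0.0784).

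**Figure D3:**
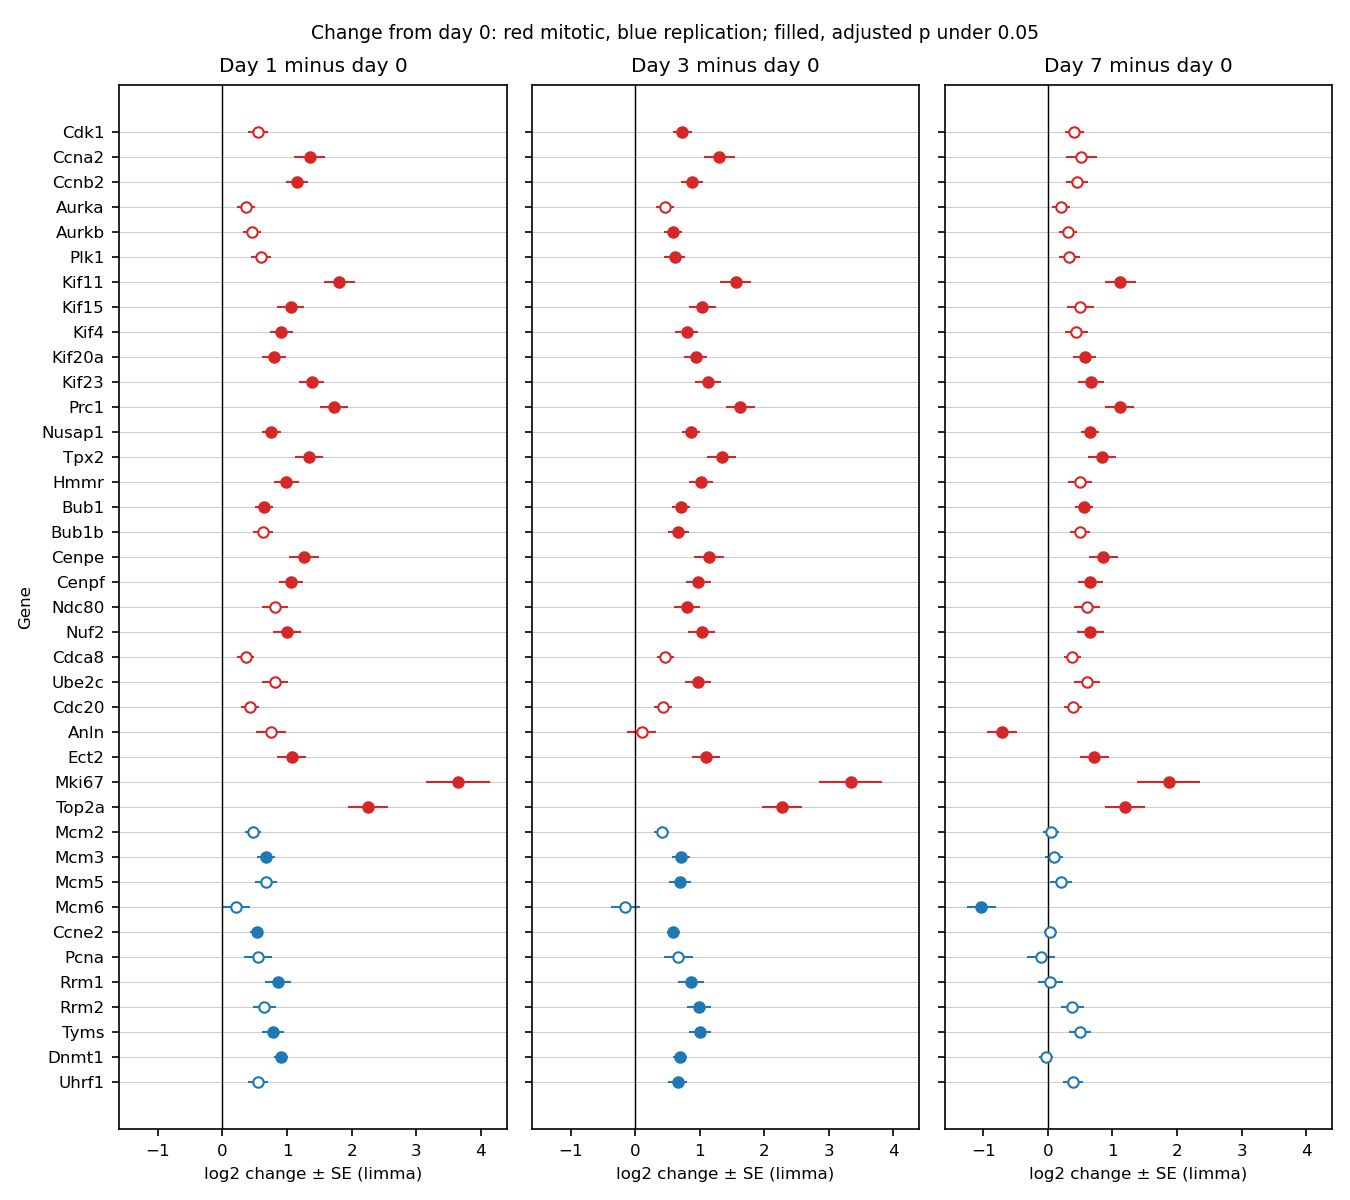
Log2 change against day 0 with its standard error for the 39 tested members at days 1, 3 and 7. Filled points have an adjusted p under 0.05; at day 7 filled points above 0 are mitotic (13), and the 2 below 0 are Anln and Mcm6.

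The calls of mitotic and replication genes were set side by side for each day. At day 1 18 of 28 mitotic and 5 of 11 replication genes rose, and at day 3 24 of 28 and 8 of 11. At day 7 13 of 28 mitotic and 0 of 11 replication genes rose, while 1 of each fell. Among all genes tested, 1.97%, 4.57% and 12.1% rose at days 1, 3 and 7, and 13.1% fell at day 7. The replication counts at day 7 are near these shares and are not read as a result about replication genes. The 13 mitotic genes that rose at day 7 had also risen at days 1 and 3: Mki67, Top2a, Kif11, Prc1, Bub1, Cenpe, Cenpf, Kif20a, Kif23, Nusap1, Tpx2, Nuf2 and Ect2. Of these 13, 6 (Bub1, Cenpe, Cenpf, Kif20a, Nusap1 and Nuf2) were at background on both day 0 and day 7, and Bub1 and Nusap1 were under the negative control median on all 12 arrays; the part of the upward shift of dim genes in these calls was not tested. With 1 array left out, 5 to 24 mitotic and 1 to 9 replication genes rose at day 1, 9 to 27 and 4 to 9 at day 3, and 3 to 21 and 0 to 3 at day 7. Without day 1 replicate 3 the replication counts were 9 at day 1 and 3 at day 7, and at day 1 the count was 1 without any 1 day 0 array or without day 1 replicate 1 or 2, and 2 without day 3 replicate 2 or 3. Replication rises were 2 at day 1 and 1 at day 3 with the control-feature covariate, 3 at each of those days with median centring, and 1 at day 7 with the replicate block. The median change of mitotic genes was 0.95, 0.95 and 0.56 at days 1, 3 and 7, and that of replication genes 0.65, 0.69 and 0.05. The medians differed by 0.30, 0.27 and 0.52. On single arrays, the median mitotic minus the median replication signal varied between arrays of the same day by 0.13 (SD). That is a spread of signal levels and not the error of the differences between median changes. With the control-feature covariate the differences at days 1, 3 and 7 were 0.27, 0.07 and 0.21, so that day 1 held the largest, and with quantile normalization that of day 7 was 0.36. No p-value is given, since genes are not replicates and were chosen with earlier results known.

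The mean over the genes was also taken on each array. Relative to day 0, the 28 mitotic genes averaged 1.28, 1.30 and 0.64 on the day 1 arrays, 0.80, 1.21 and 1.09 on the day 3 arrays, and 0.65, 0.60 and 0.56 on the day 7 arrays. The 11 replication genes averaged 0.65, 0.85 and 0.37 at day 1, 0.43, 0.77 and 0.74 at day 3, and -0.04, 0.15 and 0.04 at day 7. On each treated array the mitotic mean exceeded the replication mean, by 0.27 to 0.69. More mitotic than replication genes lay at background on day 0, in the range of signals that shifted up among all genes, and the part of that shift was not tested. Within the 5 to 6 range at day 7, 15 mitotic genes had a median change of 0.50, 4 replication genes 0.30 and all genes 0.25. Within the 6 to 7 range, 10 mitotic genes had 0.67, 3 replication genes 0.10 and all genes 0.07.

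**Figure D4:**
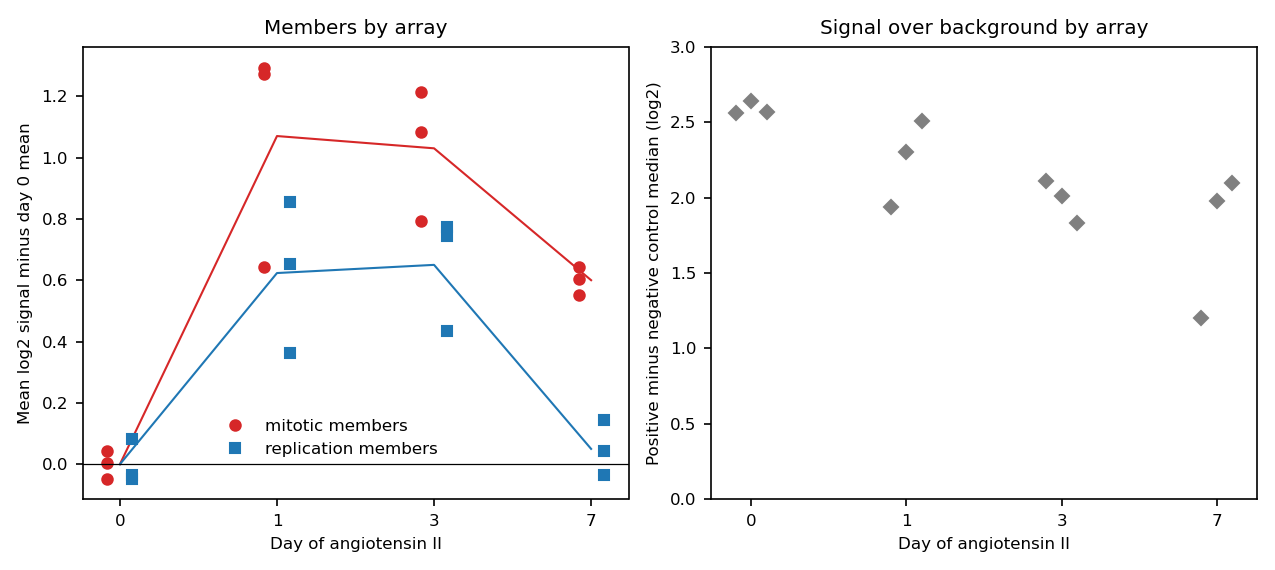
Left, mean log2 signal of the 28 tested mitotic and 11 tested replication members on each array minus the day 0 mean, with lines through the day means. Right, median of positive minus negative control features on each array; replication genes are back near 0 at day 7, between -0.04 and 0.15, and the control difference is lowest, 1.20, on day 7 replicate 1.

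Between treated days few members passed. From day 1 to day 3 limma called 0 members and 0% of all genes, with 1780 genes and 1 member at an unadjusted p under 0.05. The largest change stood at day 1 for 17 members, at day 3 for 22 and at day 7 for 0. Day 7 was lower than day 1 for 6 of 39 members, against 2.91% of all genes tested that were lower: Anln (-1.46 ± 0.23), Mcm6 (-1.24 ± 0.22), Dnmt1 (-0.94 ± 0.11), Rrm1 (-0.82 ± 0.20), Ccnb2 (-0.71 ± 0.17) and Ccne2 (-0.49 ± 0.10). Of these, 4 are replication genes and 2 mitotic. Their adjusted p-values were 0.0168, 0.0232, 0.00767, 0.0492, 0.049 and 0.0353. Mki67 stood at -1.77 ± 0.49 and did not pass (adjusted p = 0.0621). Against day 3, day 7 was lower for Dnmt1 alone (-0.72 ± 0.11, adjusted p = 0.0354), where 0.153% of all genes were lower. Arrays of days 1 and 7 with the same replicate number deviated together, and with the replicate as a block 7 members were lower, but Ccnb2 did not pass (adjusted p = 0.0646). With quantile normalization 18 members were lower at day 7 than at day 1 and with median centring 22. With the 6 arrays alone 0 were, and the count was 1 without day 1 replicate 2, 3 without any 1 of 7 other arrays and 10 without day 1 replicate 3.

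Other genes of the same machinery were read from lists that do not overlap the members. The shares of all genes tested were 1.97%, 4.57% and 12.1% that rose at days 1, 3 and 7, and 13.1% that fell at day 7. Of 55 tested further mitosis genes, 18 rose at day 1, 36 at day 3 and 26 at day 7, while 0, 1 and 1 fell. Their median change was 0.51, 0.56 and 0.39. The largest rises at day 1 were those of Ckap2, a spindle protein, at 1.49 ± 0.18, of the kinetochore scaffold Knl1 at 1.40 ± 0.21 and of Stmn1, which takes microtubules apart, at 1.15 ± 0.25. Pttg1, securin that holds back separase, fell by 0.59 at day 3 and by 0.42 at day 7. Of 49 tested further replication genes, 7 rose at day 1, 18 at day 3 and 11 at day 7, while 0, 0 and 1 fell. Their median change was 0.36, 0.34 and 0.18. Hells, a chromatin remodeller, stood at 0.88 ± 0.18 and 0.96 ± 0.18 at days 1 and 3, and Clspn, which signals stalled forks, at 0.83 ± 0.14 and 0.75 ± 0.14. At day 7 11 of these 49 rose, among them Dbf4, which activates the origin kinase, at 0.59 ± 0.13, against 0 of the 11 members; the 2 lists were not tested against each other. Tipin, of the fork protection complex, fell at day 7 (-0.42).

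Among 18 tested regulators of cell cycle entry, 2 rose and 2 fell at day 1, 5 rose and 2 fell at day 3, and 2 rose and 3 fell at day 7. Of all 22150 genes tested, 1.97%, 4.57% and 12.1% rose at days 1, 3 and 7, and 13.1% fell at day 7. In either direction 798 genes were called at day 1 and 2583 at day 3. The day 7 counts of the regulators are near the shares of all genes and are not read as a result about this list. Ccnd2, cyclin D2 that drives cells out of rest, had signals of 11.47, 11.55 and 11.83 at day 0, 9.68, 10.04 and 10.15 at day 1, 9.60, 9.88 and 8.99 at day 3, and 8.27, 8.72 and 9.23 at day 7. It fell on every treated array relative to day 0, with -1.66 ± 0.28 at day 1, -2.13 ± 0.28 at day 3 and -2.88 ± 0.28 at day 7 (adjusted p = 0.0169, 0.00386 and 0.000824). Rbl1, the pocket protein p107, rose by 0.83 ± 0.12 at day 1 and 0.68 ± 0.12 at day 3, and Rbl2, the pocket protein p130 of resting cells, fell by 0.49, 0.57 and 0.43 at days 1, 3 and 7. The growth factor response gene Myc rose by 0.58 and 0.56 at days 1 and 3, and the repressors E2f7 and E2f8 rose by 0.60 and 0.60 at day 3 and by 0.42 and 0.41 at day 7. Of 12 tested inhibitors of cyclin-dependent kinases and antiproliferative genes, 1 fell at each day and 0 rose: Tob1 at day 1 (-1.01), the inhibitor p27, Cdkn1b, at day 3 (-0.91) and Btg2 at day 7 (-1.63). At day 7, 1 of 12 is no more than the 13.1% of all genes that fell. Cdkn1a, the inhibitor p21, did not pass, with -0.11, 0.89 and 0.43 (adjusted p = 0.949, 0.0546 and 0.217).

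Markers of several cell types moved over the same days. Of all genes tested, 1.97%, 4.57% and 12.1% rose at days 1, 3 and 7, and 13.1% fell at day 7. In either direction 798, 2583 and 5594 of 22150 genes were called. The mean of 13 macrophage markers on an array was 7.44 to 7.86 at day 0, 8.95 to 9.50 at day 1, 9.05 to 9.65 at day 3 and 8.78 to 10.06 at day 7, and 8, 11 and 11 of the 13 rose. The mean of 9 smooth muscle markers was 13.79 to 13.93 at day 0, 11.89 to 13.49 at day 1, 11.27 to 12.44 at day 3 and 8.79 to 11.44 at day 7, and 1, 3 and 8 fell. That of 7 fibroblast markers was 12.15 to 13.20 at day 0 and 13.60 to 14.24 at day 7, with 0, 2 and 3 that rose, and of 8 endothelial markers 0, 0 and 1 fell. All 5 measured T cell markers and all 4 measured B cell markers lay under the negative control median on every array. Of 6 neutrophil markers, 4 to 6 lay under it on any 1 array; 2 of 5 tested rose at day 3 and 2 at day 7, with a median change of 0.47 and 0.66. Cardiac muscle markers averaged 6.01 to 6.24 at day 0 and 7.68 to 7.89 at day 7, where 4 of 4 tested rose, and 4 of 6 skeletal muscle markers, at 5.81 to 6.24 on average at day 0 and 6.12 to 7.33 at day 7, rose at day 7. Alas2, the 1 erythroid precursor marker tested of 3 measured, had signals of 5.65 to 5.71 at day 0, 5.71 to 5.90 at day 1, 5.98 to 6.86 at day 3 and 5.70 to 5.90 at day 7, and rose at day 3 by 0.72. Of 5 tested brown adipocyte markers, which averaged 8.80 to 9.23 at day 0, 7.44 to 8.07 at day 1, 7.84 to 8.82 at day 3 and 7.11 to 8.73 at day 7, 1 rose and 1 fell at days 1 and 3, and 1 fell at day 7. Of 7 white adipocyte markers, 1 fell at day 3 and 1 rose at day 7. Which cells carried the mitosis and replication transcripts, and the part of cell type changes in the results, was not tested.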

How the data were processed

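Total RNA of vessels from 12 mouse samples, 3 for each of 4 days, was measured on 1 Affymetrix array each. The deposited values are log2 signals that the authors obtained from Expression Console (Affymetrix), as the submitters' processing notes say; the sources used here do not give its version, background correction or normalization. The table holds 72688 features, of which 65956 are transcript clusters: 31379 have 1 gene symbol, 1371 several and 33206 none. The number of arrays limits the precision. For each gene the single-symbol cluster with the highest mean was kept, and genes that reached the 40th percentile of all clusters (5.25) on at least 3 arrays were tested. limma 3.58.1 in R 4.3.3 was fitted to all 12 arrays with 1 mean per day, and p-values were adjusted by the Benjamini-Hochberg method over 22150 genes, with a threshold of 0.05. The fit was tested on simulated data with independent noise for each gene and no shift shared by an array. Shifts of whole arrays are therefore not covered by that test. Nothing says that the biological replicates were separate animals, so p-values measure only the spread between these samples. The members and lists were chosen with earlier results of these data known. All members are named; values on every array are given for the members with the largest and next largest change in each role. Deviations from the group means correlated over 0.1 for all 3 same-numbered pairs of days 1 and 7, which is the only comparison where the numbers met the rule for pairing. Other scalings, filters, a control-feature covariate, a replicate block and leaving out each array were tried as alternatives.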

Additional observations from a re-analysis of the deposited data

Results flagged for a closer look

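Members whose change differed between treated days in limma's test of the difference itself were the following. Day 7 was below day 1 by a log2 difference of -1.46 ± 0.23 (SE) for Anln (adjusted p = 0.0168) and -1.24 ± 0.22 for Mcm6 (adjusted p = 0.0232). Dnmt1 stood at -0.94 ± 0.11 (adjusted p = 0.00767), and Rrm1 at -0.82 ± 0.20 (adjusted p = 0.0492). For Ccnb2 the difference was -0.71 ± 0.17 (adjusted p = 0.049, and 0.0646 in limma with the replicate block), and for Ccne2 it was -0.49 ± 0.10 (adjusted p = 0.0353). Between day 7 and day 3, Dnmt1 differed by -0.72 ± 0.11 (adjusted p = 0.0354).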

How the results depend on the processing

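Every member called higher kept its direction in each setting in which it was tested. With quantile normalization 5 members rose at day 7, 18 were lower at day 7 than at day 1 and 3 lower than at day 3; of all genes 480 were called at day 1, 1977 between days 7 and 1 and 131 between days 7 and 3, and the medians of mitotic and replication genes differed by 0.36 at day 7. With median centring the counts were 5 at day 7, 22 lower than at day 1, and 439 and 2261 genes at day 1 and between days 7 and 1. With the control-feature covariate 14, 3 and 0 members rose at days 1, 3 and 7, 0 fell at day 7, and 2 were lower at day 7 than at day 1 and 2 than at day 3; 466 genes were called at day 3, 776 at day 7, 374 between days 7 and 1 and 380 between days 7 and 3, and the medians differed by 0.07 and 0.21 at days 3 and 7. With only the 6 arrays compared 1 member rose at day 1, 1 fell at day 7, and 0 and 0 were lower at day 7 than at days 1 and 3, with 216, 4531, 2731, 2 and 1 genes called. Without a filter 1 member fell at day 7, a stricter filter gave 91 genes between days 7 and 3, and a variance trend left 0 members lower at day 7 than at day 3. At background on day 0 were 34 members on at least 2 arrays and 41 against the 90th percentile. Of all 30819 genes measured, 17055 and 26176 were. Leaving out 1 array gave 6 to 33 members at day 1, 13 to 35 at day 3, 3 to 24 higher and 1 to 2 lower at day 7, 1 to 10 lower at day 7 than at day 1 and 0 to 1 than at day 3. For all genes the counts were 101 to 1107, 714 to 3532, 2860 to 7471, 0 to 1, 43 to 3757 and 10 to 275. The medians differed by 0.26 to 0.34, 0.21 to 0.34 and 0.42 to 0.59, and 29 to 33 members were at background. Between days 7 and 1 all 3 same-numbered pairs correlated over 0.1 (0.61, 0.36 and 0.66); the pairs of the other days did not all do so (7 of 18 over 0.1 in all, from -0.51), and nothing in the labels says what the numbers share; with the replicate as a block 23, 34 and 14 members rose, 2 fell at day 7, and 7 and 1 were lower at day 7 than at days 1 and 3, with Ccnb2 lost against day 1. Changes that turned sign, none of them called, were Anln at day 3 (-0.08 centred, -0.07 without day 3 replicate 2) and Mcm6 at day 3 (0.20 with the covariate, 0.04 without day 0 replicate 2). At day 7 they were Aurka (-0.01 quantile, -0.07 centred, -0.14 covariate), Aurkb (-0.05 covariate), Plk1 (-0.07 covariate), Ccne2 (-0.15 quantile, -0.23 centred, 0 without day 7 replicate 3) and Mcm2 (-0.22 quantile, -0.23 centred, -0.01 without day 0 replicate 3). Mcm3 gave -0.10, -0.18 and -0.22 and Mcm5 -0.05, -0.06 and -0.10 under quantile, centred and covariate settings. Pcna gave 0 without day 0 replicate 2 or day 7 replicate 3, Rrm1 -0.05 quantile, -0.24 centred, -0.01 without day 0 replicate 1 and -0.03 without day 7 replicate 2, and Dnmt1 0.20 with the covariate and 0.07 without day 7 replicate 1. Over all arrays left out, the changes at day 3 spanned -0.07 to 0.23 for Anln and -0.25 to 0.04 for Mcm6, and at day 7 -0.01 to 0.09 for Mcm2, -0.29 to 0 for Pcna and -0.03 to 0.11 for Rrm1. The cause was not tested. Signals near background limit the precision of dim members.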
